A study of Mus musculus with 5 samples.

Results

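The interferon-stimulated gene module is a list of 39 mouse genes that interferons are known to induce, chosen by name. Of these, 37 were in the table of 32285 measured genes, and Mx1 and Mx2 were not analysed here. Neutrophils from female wild-type C57BL/6J mice were measured by droplet single-cell RNA sequencing (10x Chromium, version 3 chemistry) in 3 libraries. The AT3-gcsf library came from mice bearing tumours of a line so named, which its name marks as a G-CSF variant of AT3, a mouse mammary carcinoma line. G-CSF is the growth factor that drives neutrophil production, and how the line was made is not given in the labels. The AT3 library came from mice bearing AT3 tumours, and the naive library from mice without a tumour. Each library pooled neutrophils sorted from bone marrow, blood and lung, each carrying a hashtag antibody, so that cells fell into 3 tagged populations per library and 9 in all. Which tag marks which tissue is not given in the labels, and the number of mice behind a population is not given. With 1 library per condition no test between conditions was possible, and the 95% intervals below cover counting error only.

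Type I interferons signal through the receptor chains IFNAR1 and IFNAR2 and the kinases JAK1 and TYK2. These lead to a complex with STAT2 and IRF9 that binds interferon-stimulated response elements, repeats of a GAAA core, in the promoters of its targets. Interferon gamma acts through the receptor chains IFNGR1 and IFNGR2, and guanylate-binding proteins and immunity-related GTPases are among its best known targets. The products block viral translation, degrade or sense foreign nucleic acids, modify proteins with ISG15 and feed back on the pathway. In neutrophils the programme is known to be uneven between cells.

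The promoter sequences below are examples, credited to RefSeq (GRCm38.p6). They show that repeat in members from the IFIT, ISG15, nucleic-acid effector and GTPase groups, and none in the stretch of Slfn1. Whether matches go with the level of a member was not tested. Each sequence is the gene's own strand, 5′ to 3′, ending before the annotated gene start. Capitals mark matches to GAAANNGAAA or its reverse complement TTTCNNTTTC, and overlapping matches run together. The stretches are chr19:34640769-34640870 (plus strand) for Ifit1, chr19:34583359-34583528 (plus) for Ifit3, chr4:156200819-156200938 (minus) for Isg15, chr12:26456453-26456582 (minus) for Rsad2, chr3:142530216-142530335 (plus) for Gbp7 and chr11:83116700-83116819 (plus) for Slfn1.
Ifit1: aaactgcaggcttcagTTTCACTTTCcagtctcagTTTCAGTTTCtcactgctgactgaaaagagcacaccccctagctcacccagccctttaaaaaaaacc
Ifit3: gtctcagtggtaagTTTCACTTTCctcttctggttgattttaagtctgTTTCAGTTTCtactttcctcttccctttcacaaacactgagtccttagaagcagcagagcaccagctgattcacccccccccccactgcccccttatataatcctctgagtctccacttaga
Isg15: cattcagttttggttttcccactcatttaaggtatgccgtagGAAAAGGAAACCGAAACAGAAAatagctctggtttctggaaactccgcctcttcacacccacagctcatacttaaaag
Rsad2: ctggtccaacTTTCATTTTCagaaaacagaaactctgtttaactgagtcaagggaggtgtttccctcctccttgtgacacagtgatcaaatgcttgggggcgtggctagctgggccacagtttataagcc
Gbp7: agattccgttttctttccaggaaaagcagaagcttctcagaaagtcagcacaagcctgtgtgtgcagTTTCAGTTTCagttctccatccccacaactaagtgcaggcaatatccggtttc
Slfn1: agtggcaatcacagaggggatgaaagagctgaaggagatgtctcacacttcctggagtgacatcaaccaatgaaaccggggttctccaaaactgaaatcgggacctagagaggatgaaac

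Of the 39 members, 30 had a promoter window in the RefSeq table, running from 250 bases before to 50 bases after the gene start. A match on either strand lay in a window of 17 of these 30 members (56.7%), against 3.99% of all 27025 genes in the table. Isg15 held 3 overlapping matches, and Ifit1 and Ifit3 held 2 each. Oasl1, Oasl2, Irf7, Cmpk2 and Ifit2 were among the 13 members with none in these windows.

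The kept cells numbered 10152 in AT3-gcsf, 7586 in AT3 and 7296 in naive, with 89812354, 51492525 and 28718331 counts of unique molecules in all. Median counts per cell were 7590, 4792 and 2770, so naive cells were the shallowest. Levels are given as CPM (counts scaled to a total of 1000000) over the summed cells of a library or population, and per-cell values after thinning each cell to 1500 counts. Neutrophil markers were the main markers in every population: S100a8 and S100a9 alone made up 26.7 to 29.4% of counts in AT3-gcsf, 24.7 to 39.2% in AT3 and 11.0 to 35.5% in naive populations. Markers of other cell types, 34 genes, summed to 103 to 151 CPM in AT3-gcsf, 129 to 440 CPM in AT3 and 259 to 977 CPM in naive populations. At 0 were Epx in every library, Mcpt8, Cpa3 and Prss34 in AT3, and Prg2 in naive. The part of these markers in the results below was not tested. The 2 genes that define plasmacytoid dendritic cells, Siglech and Ccr9, summed to at most 1.44 CPM in any population. Between 20 and 44 barcodes were shared by any 2 libraries.

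Summed over its 37 measured members, the module was lowest in AT3-gcsf. It stood at 1959 CPM in AT3-gcsf, 4327 CPM in AT3 and 3883 CPM in naive cells. The AT3-gcsf populations MHTO3, MHTO4 and MHTO5 were close together, at 2344, 1665 and 1985 CPM. The AT3 populations MHTO7, MHTO8 and MHTO10 were at 3061, 4284 and 7049 CPM. The naive populations MHTO3, MHTO4 and MHTO5 spread widest, at 6699, 1819 and 4855 CPM. All AT3-gcsf populations lay below all AT3 populations, whereas both AT3-gcsf and AT3 overlapped the naive range. AT3 MHTO10 was the highest of the 9 populations for 20 of the 37 members, and naive MHTO3 for 13. The lowest population was naive MHTO4 for 14 members and AT3-gcsf MHTO4 for 13. How often these populations were highest or lowest over all genes was not counted, so the numbers have no background beside them. The colour map of members by population shows these columns.

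**Figure D1:**
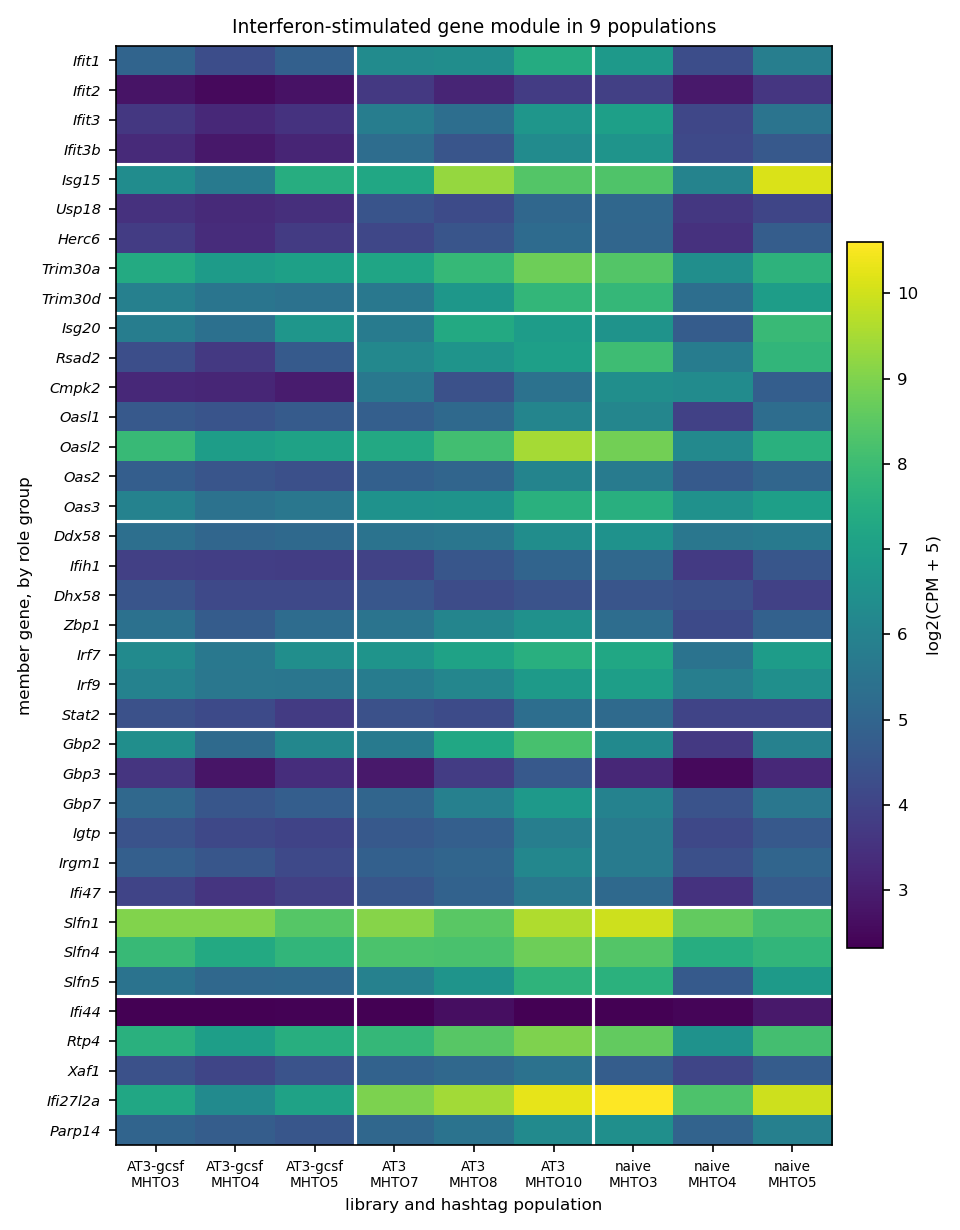
Level of each of the 37 measured members (vertical axis, white lines between role groups) in each of the 9 tagged populations (horizontal axis), as log2(CPM + 5). AT3 MHTO10 and naive MHTO3 hold most of the brightest cells, and the AT3-gcsf populations and naive MHTO4 are darker for most members.

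The question of how the AT3-gcsf condition differs from AT3 alone was answered in one direction by nearly every member. The summed module was 0.453 of its AT3 level (log2 ratio -1.14, interval -1.15 to -1.13), and none of the 9 pairs of populations had AT3-gcsf higher. Of 29 members at 20 CPM or more in the higher library, 15 were at least 2-fold lower in AT3-gcsf and 0 were at least 2-fold higher, where 2.81% and 1.96% of 3624 genes were. Fold changes of single genes are on the log2(CPM + 5) scale, which understates changes of low genes. The members' median was -1.01, and that of all genes was -0.04. Lower in all 9 pairs of populations were 20 of the 29, against 9.66% of all genes, and higher in all 9 were 0, against 11.9%.

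The IFIT genes, which bind foreign RNA and block its translation, showed the widest gap. Ifit1 (chromosome 19, 34640871 to 34650009) was at 27.1, 14.2 and 24.2 CPM in AT3-gcsf MHTO3, MHTO4 and MHTO5, against 74.0, 78.7 and 164 CPM in AT3 MHTO7, MHTO8 and MHTO10, a log2 ratio of -1.90. The highest AT3-gcsf population was below the lowest AT3 population. Ifit3 (chromosome 19, 34583531 to 34588731) was at 7.73, 4.75 and 6.56 CPM in AT3-gcsf populations against 51.3, 34.8 and 97.3 CPM in AT3 populations (log2 ratio -2.39), again with no overlap. Its neighbour Ifit3b had a ratio of -2.24. The pair shares 51.2% of the 50-base stretches of Ifit3 transcripts, so reads may be split between them and their separate values are uncertain.

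Among the nucleic-acid effectors, Rsad2 (viperin, which makes a chain-terminating nucleotide) was at 14.9, 7.86 and 20.5 CPM in AT3-gcsf populations against 68.3, 91.6 and 122 CPM in AT3 populations (log2 ratio -2.24). Cmpk2, a mitochondrial nucleotide kinase, lies beside it on chromosome 12 (Rsad2 at 26442746 to 26456452, minus strand; Cmpk2 at 26469204 to 26479837, plus strand). Cmpk2 was at 4.64, 4.21 and 2.78 CPM in AT3-gcsf against 44.3, 15.5 and 38 CPM in AT3 (log2 ratio -2.07). Neither gene's populations overlapped between the libraries. Oas3, a synthase of the oligoadenylates that activate RNase L, had a log2 ratio of -1.16, and the related Oasl2 one of -1.01. Oasl1, Oas2 and the exonuclease Isg20 were at -0.69, -0.71 and -0.66, short of 2-fold.

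Ifi27l2a (chromosome 12, 103442167 to 103443680), a small interferon-induced membrane protein, had the largest ratio of all members on the log2(CPM + 5) scale. Without the added 5 CPM, Ifit3, Ifit3b and Cmpk2 were lower still. Their log2 intervals were then -3.25 to -2.99, -3.48 to -3.14 and -3.26 to -2.92, against -2.67 to -2.61 for Ifi27l2a. Ifi27l2a was at 149, 73.5 and 132 CPM in AT3-gcsf populations against 496, 697 and 1240 CPM in AT3 populations, a log2 ratio of -2.59. The 3 AT3-gcsf values were all below the 3 AT3 values. Of the other members of its group, the receptor-transport protein Rtp4 was at -1.03 and Parp14, an ADP-ribosyltransferase, at -0.81. Isg15 (chromosome 4, 156199424 to 156200818), the ubiquitin-like modifier, was at 76.6, 48.2 and 172 CPM in AT3-gcsf against 149, 618 and 329 CPM in AT3 (log2 ratio -1.76). Its highest AT3-gcsf population, MHTO5, was above its lowest AT3 population, MHTO7. Without AT3 MHTO8 its log2 ratio was -0.95, under 2-fold. Trim30d, of the TRIM ubiquitin ligase family, was at -1.12.

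The GTPases linked to interferon gamma included 3 members past 2-fold, Gbp2 at -1.15, Ifi47 at -1.13 and Gbp7 at -1.08. Igtp and Irgm1 were at -0.89 and -0.80. Of the Schlafens, a family named for growth arrest in lymphocytes, Slfn5 was at -1.47, Slfn4 at -0.70 and Slfn1 at -0.20, the smallest ratio of the 29. The sensors Zbp1 and Ddx58 (RIG-I) were at -0.86 and -0.57, and the transcription factors Irf7 and Irf9 at -0.88 and -0.49. Sums by group put the IFIT family at -2.54 and the Schlafens at -0.47, with the other groups between. Scaling by trimmed mean of M values (TMM), which sets library size from the bulk of genes and not from the total, added up to 0.26 to a log2 ratio. The module then stood at -0.88 and 28 of 29 members stayed below 0, Slfn1 being at 0.06, but 8 (of 30 members then at 20 CPM or more) and not 15 were at least 2-fold lower, where 1.32% of all genes were lower and 3.3% higher. All genes past 2-fold were 41.0% higher ones by total counts and 71.4% under TMM. By total counts and without AT3 MHTO10, 8 of 29 members were at least 2-fold lower, where 133 of 3579 genes were. Without AT3 MHTO7 it was 23 of 32 members, where 271 of 3768 genes were.

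**Figure D2:**
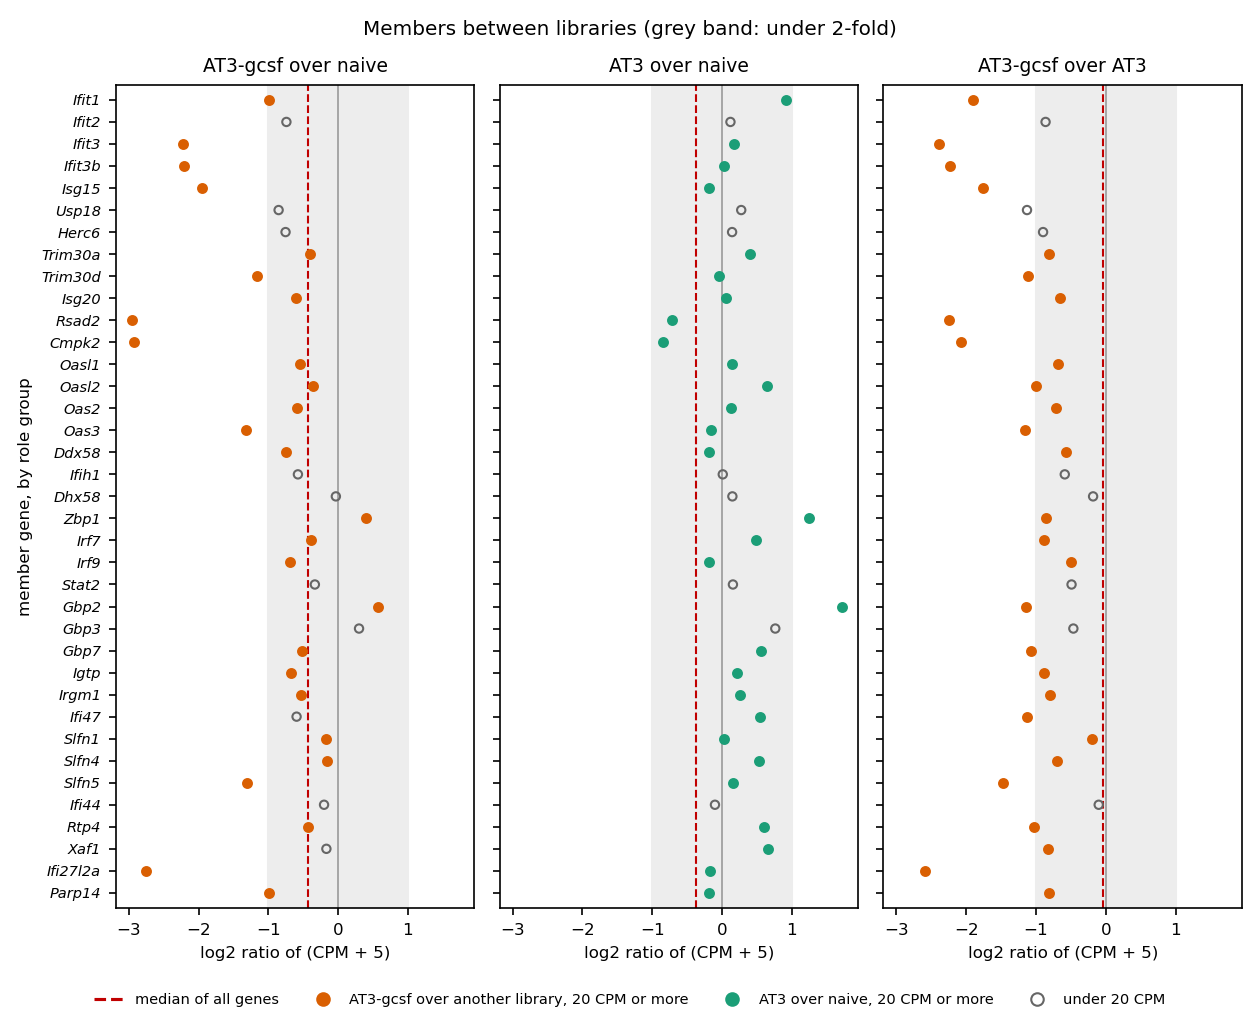
Log2 ratio of (CPM + 5) for each member (vertical axis) in the 3 comparisons of libraries, with the median of all genes as a dashed line and ratios under 2-fold in the grey band. Filled points reached 20 CPM in the higher library. In AT3-gcsf over AT3 all 29 filled points lie left of the dashed line at -0.04.

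Against naive cells, AT3-gcsf had a lower module sum, but how much lower depended on the scaling. The ratio was 0.504 (log2 -0.99, interval -0.998 to -0.976), while the median of all genes was itself -0.43. Under TMM, where that median was 0.45, the module's log2 ratio was -0.12. AT3-gcsf was higher in 2 of 9 pairs of populations, both against naive MHTO4. Of 27 members at 20 CPM or more, 9 were at least 2-fold lower and 0 at least 2-fold higher. Of all 4285 genes, 21.3% were past 2-fold downward and 4.22% upward. Lower in all 9 pairs were 7 of 27 members, where 33.1% of all genes were, so that count is not above the background. Higher in all 9 were 0 members, and 8.33% of all genes. All genes past 2-fold were 16.6% higher ones by total counts and 80.6% higher ones under TMM.

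Under both scalings 6 members were at least 2-fold lower in AT3-gcsf than in naive cells: Ifit3, Ifit3b, Isg15, Rsad2, Cmpk2 and Ifi27l2a. Of all genes 4.28% were so under TMM. Rsad2 was at 14.9, 7.86 and 20.5 CPM in AT3-gcsf MHTO3, MHTO4 and MHTO5, against 257, 50.7 and 212 CPM in the naive populations of the same tags. Its log2 ratio was -2.95 by total counts and -2.19 under TMM, and the 3 AT3-gcsf populations all lay below the 3 naive ones. Cmpk2 was at 4.64, 4.21 and 2.78 CPM in AT3-gcsf against 79.9, 74.5 and 22.8 CPM in naive populations, a log2 ratio of -2.92 (-2.30 under TMM), also without overlap. For Cmpk2, naive MHTO4, low for most members, stood close to naive MHTO3. Ifi27l2a was at 149, 73.5 and 132 CPM in AT3-gcsf against 1543, 308 and 1002 CPM in naive populations, a log2 ratio of -2.76 (-1.91 under TMM).

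Isg15 was at 76.6, 48.2 and 172 CPM in AT3-gcsf against 314, 60.6 and 1105 CPM in naive populations, with a log2 ratio of -1.95 (-1.10 under TMM). Naive MHTO4 fell within the AT3-gcsf range, so the groups overlapped for this gene. Without naive MHTO5 its log2 ratio was -0.47, under 2-fold. The other members past 2-fold by total counts were Oas3 at -1.31, Slfn5 at -1.31 and Trim30d at -1.16, and these were at -0.50, -0.51 and -0.36 under TMM. Gbp2 and Zbp1 went the other way. They were at 0.57 and 0.40 by total counts and at 1.34 and 1.11 under TMM, the only 2 of 26 members at least 2-fold higher under that scaling, where 17.7% of all genes were. The groups of sensors, transcription factors, GTPases and Schlafens were below 0 by total counts (-0.36, -0.55, -0.19 and -0.27) and above 0 under TMM (0.51, 0.32, 0.67 and 0.60). The IFIT family was below 0 under both, at -2.05 and -1.18. Of the 27 members, 25 were below 0 by total counts and 12 under TMM. Leaving out naive MHTO4 gave 20 of 32 members at least 2-fold lower, where 1312 of 4449 genes were, and a module log2 ratio of -1.54. Leaving out naive MHTO3 gave 6 of 23 members, where 842 of 4218 genes were, and a module log2 ratio of -0.60. The background thus moved with the population left out.

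Summed over each library, AT3 cells differed less from naive cells by total counts. The summed module had a log2 ratio of 0.16 (interval 0.15 to 0.17), with AT3 higher in 5 of 9 pairs of populations, and it was 0.76 under TMM. Its direction rested on single populations: it was -0.09 without AT3 MHTO10 and -0.40 without naive MHTO4. At 20 CPM or more were 29 members, of which 2 were at least 2-fold higher and none reached 2-fold lower, against 1.70% and 6.43% of 4167 genes. All genes past 2-fold were 20.9% higher ones by total counts, 83.8% under TMM and 38.5% when the totals leave out the top 20 genes by level. The members' median was 0.17 by total counts and 0.70 under TMM, where that of all genes was -0.38 and 0.20. Members above 0 numbered 20 of 29 by total counts and 27 of 29 under TMM.

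Gbp2 (chromosome 3, 142620602 to 142638008), a guanylate-binding protein that acts on vacuoles holding microbes, was at 48.1, 148 and 285 CPM in AT3 MHTO7, MHTO8 and MHTO10, against 70.4, 7.86 and 56.8 CPM in the naive populations MHTO3, MHTO4 and MHTO5. Its log2 ratio was 1.72 (2.25 under TMM), and AT3 MHTO7 overlapped the naive range. Zbp1 (chromosome 2, 173206612 to 173218923), a sensor of Z-form nucleic acids that can start cell death, was at 40.7, 62.3 and 85.1 CPM in AT3 populations against 33.6, 13.1 and 24.5 CPM in naive populations. Its log2 ratio was 1.25 (1.74 under TMM), with no overlap. Higher in all 9 pairs were 2 members, Zbp1 and Xaf1, against 2.33% of all genes, and lower in all 9 were 0, against 18%. Xaf1, a pro-apoptotic interferon target, was at 25.7, 29.5 and 38.5 CPM in AT3 against 22.3, 11.6 and 21.2 CPM in naive populations, a log2 ratio of 0.66.

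Ifit1 was at 0.92, Oasl2 at 0.64 and Rtp4 at 0.60 in AT3 over naive, all under 2-fold by total counts and all past it under TMM. Rsad2 and Cmpk2 had the lowest ratios, -0.71 and -0.84, and were the only 2 of the 29 members below 0 under TMM (-0.13 and -0.30). Isg15 and Ifi27l2a were at -0.19 and -0.16 by total counts and at 0.40 and 0.43 under TMM. By TMM 9 of 30 members were at least 2-fold higher, where 5.38% of 3738 genes were, and none was at least 2-fold lower, where 1.04% were. By total counts and without naive MHTO3, 6 of 29 members were at least 2-fold higher, where 88 of 4092 genes were. Without naive MHTO5 it was 4 of 29 members and 196 of 4111 genes. Without AT3 MHTO7 it was 4 of 32 members and 108 of 4232 genes. Without naive MHTO4 it was 1 of 32 members and 102 of 4357 genes.

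The 3 populations of each library were led by the same 3 genes, Camp (a secondary granule peptide), Cxcl2 (a chemokine) and Prr5l (linked to mTOR complexes), which had been noted in these data beforehand and allow like populations to be set side by side without naming a tissue. The Prr5l-rich populations were AT3-gcsf MHTO3, AT3 MHTO10 and naive MHTO3, with the module at 2344, 7049 and 6699 CPM. The Cxcl2-rich ones were AT3-gcsf MHTO5, AT3 MHTO8 and naive MHTO5, with the module at 1985, 4284 and 4855 CPM. The Camp-rich ones were AT3-gcsf MHTO4, AT3 MHTO7 and naive MHTO4, with the module at 1665, 3061 and 1819 CPM. The match of the Camp set is weak, since Camp was at 950 CPM in AT3-gcsf MHTO4, 10443 CPM in AT3 MHTO7 and 20061 CPM in naive MHTO4. That of the Prr5l set is weak as well, since Prr5l was at 67.0 CPM in AT3-gcsf MHTO3, against 184 CPM in AT3 MHTO10 and 141 CPM in naive MHTO3. Module log2 ratios of AT3-gcsf over AT3 were -1.59, -1.11 and -0.88 in the Prr5l, Cxcl2 and Camp sets. Those of AT3-gcsf over naive were -1.51, -1.29 and -0.13, and those of AT3 over naive 0.07, -0.18 and 0.75. In the Prr5l set, 29 of 33 members at 20 CPM or more were at least 2-fold lower in AT3-gcsf than in AT3, against 7.68% of all genes there. In the Cxcl2 set it was 11 of 27, against 5.51%, and in the Camp set 8 of 27, against 2.72%. At least 2-fold higher were 0 in each set, against 1.93, 1.2 and 6.82% of all genes. In AT3 over naive, members at least 2-fold higher were 2 of 33 (Prr5l), 2 of 29 (Cxcl2) and 11 of 27 (Camp). Of all genes 2.59, 2.51 and 2.39% were. At least 2-fold lower were 1, 1 and 0 members, against 6.59, 11.3 and 7.26% of all genes.

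Per cell and by total counts, AT3-gcsf was below both AT3 and naive at each quantile given here. After thinning to 1500 counts, which left out 114 AT3-gcsf, 88 AT3 and 440 naive cells as too shallow, the median cell held 2 module counts in AT3-gcsf, 6 in AT3 and 5 in naive. The 90th percentile was 7, 18 and 18 counts, and the 99th was 15, 44.0 and 50. Cells with no module count made up 10.5%, 3.56% and 7.61%. The variance of the counts was 3.98, 8.97 and 12.4 times their mean, where counting error alone would give a ratio near 1, so cells differed in module level in every library.

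**Figure D3:**
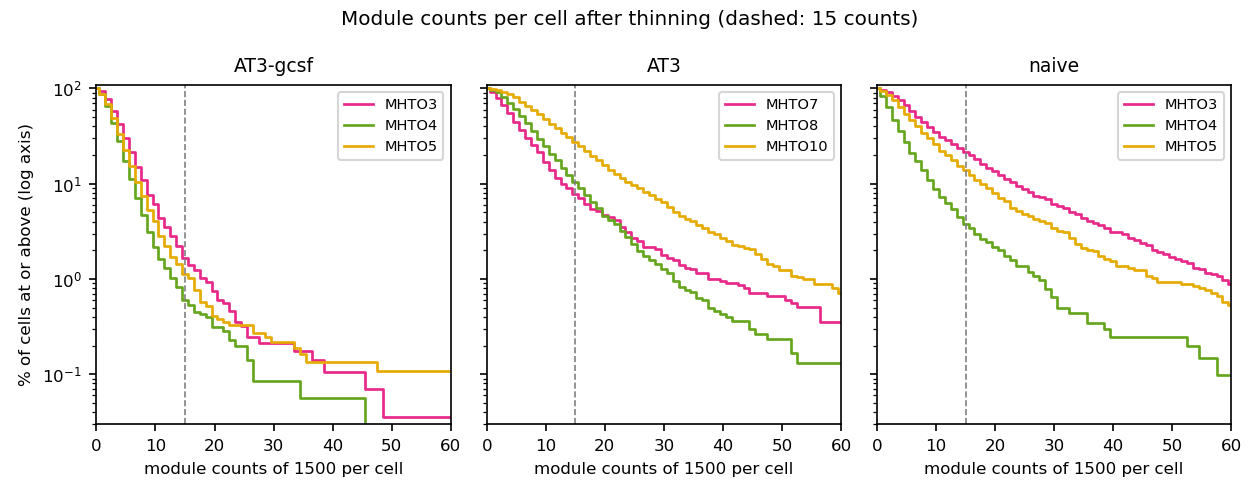
Percentage of cells (log axis) with at least a given number of module counts after thinning to 1500 counts per cell, by tagged population, 1 panel per library. The dashed line marks 15 counts, 1% of the cell. The AT3-gcsf curves cross it at 0.596 to 1.66% of cells, the AT3 curves at 7.88 to 27.6% and the naive curves at 3.79 to 21.5%.

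To separate a shift of all cells from a change in the top cells, cells were ranked within their library and the mean module counts of 5 rank bands compared. In AT3-gcsf over AT3 the pooled ratios were alike in all bands. They were 0.377 in the lower 50% of cells, 0.409 from 50 to 75%, 0.381 from 75 to 90%, 0.357 from 90 to 99% and 0.421 in the top 1%. The lower 50% of cells averaged 1.18 module counts in AT3-gcsf against 3.13 in AT3, and the top 1% averaged 24.6 against 58.4. The top 10% of cells held 32.2% of module counts in AT3-gcsf and 33.4% in AT3. TMM raised the ratios to 0.428 to 0.505. The populations led by the same gene were less even. In the Camp set the ratio was 0.566 in the lower 50% and 0.354 in the top 1%, in the Cxcl2 set 0.374 and 0.622, and in the Prr5l set 0.303 and 0.389. AT3-gcsf was below AT3 in every band of the 3 sets, under both scalings.

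In AT3-gcsf over naive the bands differed among themselves. Ratios were 0.564 in the lower 50%, 0.506 from 50 to 75%, 0.417 from 75 to 90%, 0.339 from 90 to 99% and 0.378 in the top 1%. Under TMM they were 1.03, 0.923, 0.761, 0.619 and 0.690. Pooled over populations, the lower cells were therefore near the naive level under TMM, while the upper bands were below it under both scalings. The sets led by the same gene differed from this and from each other. In the Camp set, AT3-gcsf MHTO4 over naive MHTO4, the ratio was 1.13 in the lower 50% and 0.516 in the top 1% by total counts, and 2.06 and 0.942 under TMM. In the Cxcl2 set the 2 ratios were 0.456 and 0.396 by total counts, and 0.831 and 0.722 under TMM. In the Prr5l set they were 0.45 and 0.377 by total counts, and 0.821 and 0.687 under TMM. The top 10% of cells held 32.2% of module counts in AT3-gcsf and 39.8% in naive.

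In AT3 over naive the ratios declined through all 5 bands, at 1.5, 1.24, 1.09, 0.951 and 0.9 over the same bands. The lower 50% of AT3 cells averaged 3.13 counts against 2.09 in naive cells, and the top 1% averaged 58.4 against 65.0. Pooled over populations, the lower and middle cells were higher in AT3, and the top bands lower, by total counts. Under TMM all 5 pooled ratios were above 1, at 2.27, 1.88, 1.66, 1.45 and 1.37. The sets led by the same gene differed. In the Camp set AT3 was higher in every band by total counts, at 1.99 in the lower 50% and 1.46 in the top 1%. These 2 ratios were 1.22 and 0.636 in the Cxcl2 set, and 1.48 and 0.968 in the Prr5l set. Under TMM the top 1% of the Cxcl2 set was still below 1, at 0.966.

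**Figure D4:**
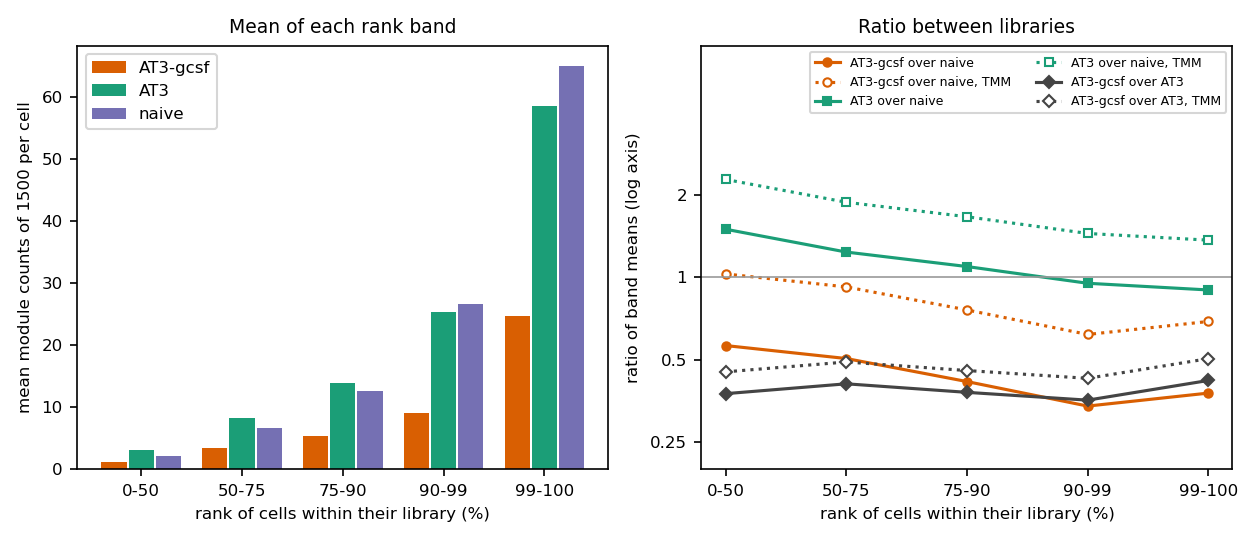
Left, mean module counts per cell (of 1500) in 5 bands of cells ranked within their library, with 1 bar per library. Right, the ratios of these means between libraries on a log axis, by total counts (filled, solid) and under TMM scaling (open, dotted). AT3-gcsf over AT3 runs flat, at 0.357 to 0.421 by total counts, while both ratios over naive decline from the lower 50% to the band from 90 to 99%.

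Module-high cells, those at 1% or more of their counts (15 or more of 1500), were rare in AT3-gcsf. They were 110 of 10038 cells in AT3-gcsf (1.10%, exact binomial interval 0.901 to 1.32), 1161 of 7498 in AT3 (15.5%, 14.7 to 16.3) and 941 of 6856 in naive (13.7%, 12.9 to 14.6). By population they were 1.66, 0.596 and 1.14% in AT3-gcsf MHTO3, MHTO4 and MHTO5. They were 7.88, 10.4 and 27.6% in AT3 MHTO7, MHTO8 and MHTO10, and 21.5, 3.79 and 13.8% in naive MHTO3, MHTO4 and MHTO5. All AT3-gcsf populations were below all AT3 and naive ones. The difference was -14.4 percentage points from AT3 (interval -15.2 to -13.5) and -12.6 points from naive (-13.5 to -11.8). With the 1% limit scaled by TMM, high cells were 2.26% in AT3-gcsf, 17.7% in AT3 and 6.91% in naive, so the difference from naive was -4.65 points and that from AT3 -15.4 points. At that limit AT3-gcsf MHTO3 and MHTO5, at 3.50 and 2.22%, were above naive MHTO4, at 1.72%, so AT3-gcsf and naive populations overlapped. Without thinning the shares were 0.778, 13.9 and 13.0%. The limit cuts through a continuum, and 162, 925 and 614 cells lay between 0.8 and 1.2%.

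High cells carried 7.94% of all module counts in AT3-gcsf, 43.8% in AT3 and 47.6% in naive. Their own mean module share was 1.58% of counts in AT3-gcsf, 1.61% in AT3 and 1.77% in naive. The other cells averaged 0.203, 0.379 and 0.309%. Splitting the difference in mean share between AT3-gcsf and AT3, 53.4% went with the share of high cells, 45.9% with the mean of the other cells and 0.698% with the mean of the high cells. Against naive, 61.5% went with the share of high cells, 33.7% with the other cells and 4.72% with the high cells' mean. High cells were defined by this same module share, so their mean could not fall below 1% in any library. A shift of all cells also moves cells across that limit. The split therefore cannot tell a shift of all cells from fewer high cells.

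AT3 exceeded naive in high cells by 1.76 percentage points (interval 0.593 to 2.92), a difference that turned with 1 population or with the limit. It was -4.32 points without AT3 MHTO10, -2.43 points without naive MHTO4 and -0.496 points with the limit at 2%. At a limit of 0.5% it was 8.78 points, with 40.9% of AT3 and 32.2% of naive cells above it.

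Pooled together, high cells had higher levels of nearly every member than the other cells. This does not hold in each single cell: Ifit2 had 270 counts in 1170 high cells of AT3, so most of those held none. Each member's level was compared between cells that were high for the other 36 measured members and the remaining cells of the library. The ratio had an interval above 1 for 36 of 37 members in each library, all but Ifi44, which had 7 counts in AT3-gcsf, 23 in AT3 and 24 in naive. The same ratio was not computed over all genes, so this count has no background beside it. Neutrophil markers took a smaller part of the counts in high cells (below), and the part of that in these ratios was not tested. The median ratio was 7.93 in AT3-gcsf, 4.78 in AT3 and 4.90 in naive. The IFIT genes were the most concentrated: Ifit2 was 238-fold higher in high cells of AT3-gcsf, 37.8-fold in AT3 and 56.2-fold in naive. Ifit3 was at 108-fold in AT3-gcsf, 24.8-fold in AT3 and 51.1-fold in naive, and Ifit3b at 118-fold, 23.9-fold and 32.4-fold.

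The level of Ifit3 within high cells was close across libraries, at 379 CPM in AT3-gcsf, 418 CPM in AT3 and 427 CPM in naive, while in the other cells it was 3.51, 16.9 and 8.35 CPM. High cells were picked at the same limit in every library, and how far that choice sets these levels was not tested. Rsad2 was at 672, 459 and 866 CPM in high cells of AT3-gcsf, AT3 and naive, against 10.0, 50.7 and 74.5 CPM in the others. The level of Rsad2 in high cells of AT3-gcsf thus lay between those of AT3 and naive. Ifit1 was highest in high cells of AT3-gcsf, at 1069 CPM in AT3-gcsf, 613 CPM in AT3 and 354 CPM in naive high cells. Ifi27l2a differed in both kinds of cell, at 644, 2274 and 3225 CPM in high cells of the 3 libraries and 112, 615 and 661 CPM in the others. Gbp2 was at 490 and 538 CPM in high cells of AT3-gcsf and AT3 and at 160 CPM in those of naive.

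The least concentrated member apart from Ifi44 was Slfn1, at 1.64-fold in AT3-gcsf, 1.83-fold in AT3 and 2.36-fold in naive. Irf9, a DNA-binding transcription factor of the type I pathway, was at 1.91-, 2.35- and 3.01-fold, the next lowest in AT3-gcsf. In AT3 and naive the sensor Dhx58 was lower still, at 2.32- and 2.59-fold, against 4.82-fold in AT3-gcsf. Trim30a, Slfn4 and Trim30d followed Irf9 in AT3-gcsf at 2.71-, 3.32- and 3.42-fold. Slfn1 was at 728, 878 and 1057 CPM in high cells and 443, 481 and 449 CPM in the other cells of AT3-gcsf, AT3 and naive, so most of its counts lay outside high cells. Slfn1 alone gave 39906 of the 175913 module counts of AT3-gcsf.

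**Figure D5:**
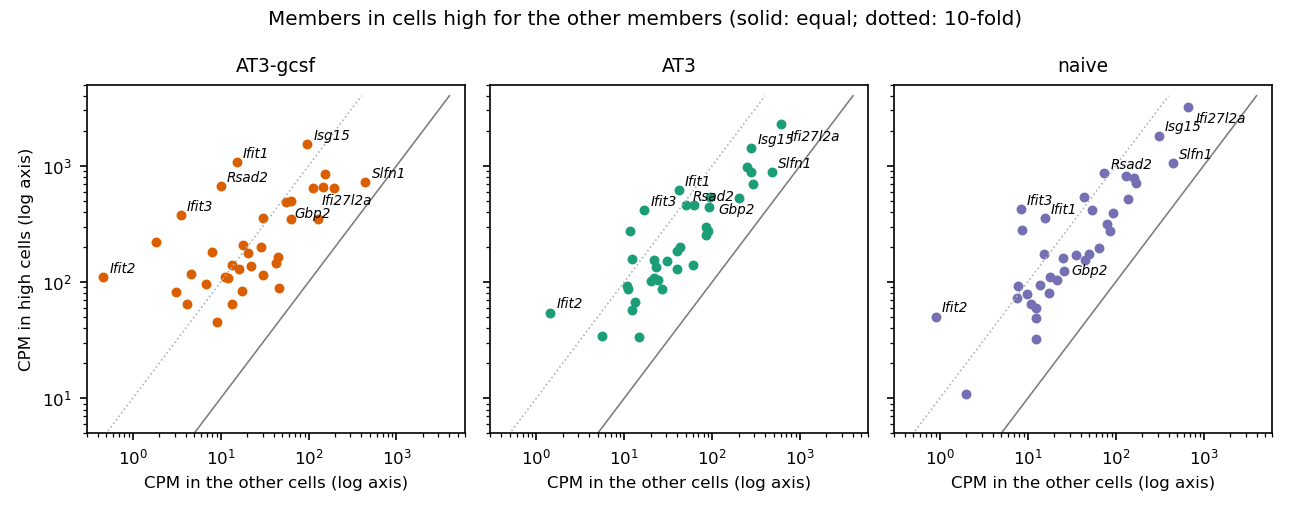
Level of each member (CPM, log axes) in cells high for the other members (vertical) and in the remaining cells (horizontal), 1 panel per library. The solid line marks equal levels and the dotted line a 10-fold difference, and members with fewer than 3 counts in high cells are not drawn. Ifit2, Ifit3, Ifit3b and Rsad2 lie farther left in AT3-gcsf than in the other panels.

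High cells were shallower and held fewer granule transcripts than the others. Their median counts per cell were 4932 in AT3-gcsf against 7689 in its other cells, 3536 against 5295 in AT3 and 2492 against 2941 in naive. Neutrophil markers took a median 21.0% of counts in high cells against 28.0% in the others in AT3-gcsf, 18.5% against 28.6% in AT3 and 13.2% against 19.3% in naive. Markers of other cell types summed to 144 CPM in high cells against 125 CPM in the others in AT3-gcsf, 308 against 279 CPM in AT3 and 558 against 514 CPM in naive. The part of depth and of these markers in the high cells was not tested.

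Cells were sorted by the summed share of 7 genes: Camp, Ngp, Ltf, Lcn2, Chil3, Cd177 and Ltb4r1. Most of them are secondary granule genes, which neutrophils make before they mature. The sum did not follow Camp alone. It was 1.22% of counts with Camp at 224 CPM in AT3-gcsf MHTO5, and 0.314% with Camp at 599 CPM in naive MHTO5. Whether a band holds cells of the same stage in each library was not tested. Where these 7 genes took under 1% of a cell's counts, high cells were 1.48% in AT3-gcsf, 19.1% in AT3 and 16.7% in naive. Between 1 and 5% they were 0.212, 4.10 and 2.69%. At 5% or more they were 0 of 187 cells in AT3-gcsf, which allows up to 1.95% (exact binomial interval), and 0.822% in AT3 and 0.265% in naive. AT3-gcsf was thus below both in the 2 bands under 5%. Its cells at 5% or more were few, with 187 of 10152 against 608 of 7586 in AT3 and 773 of 7296 in naive.

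Of the pathway around the module, ligands were all but absent from these cells. Ifnb1 and Ifng had 1 count each, both in naive, and Ifna4, Ifnl2 and Ifnl3 had 0 in every library. Of 39 listed non-member genes at 20 CPM or more, in AT3-gcsf over naive 4 were past 2-fold upward and 9 downward, and in AT3 over naive 3 upward and 1 downward. Beside them stand 4.22% and 21.3% of all genes over naive in AT3-gcsf and 1.70% and 6.43% in AT3, so the 9 downward genes are near the background. Of 36 such genes in AT3-gcsf over AT3, 2 were past it upward and 1 downward, beside 1.96% and 2.81% of all genes. Ifngr1, the ligand-binding chain of the interferon gamma receptor, was at 643, 600.3 and 475 CPM in AT3-gcsf MHTO3, MHTO4 and MHTO5. It was at 138, 292 and 384 CPM in AT3 MHTO7, MHTO8 and MHTO10, and at 169, 68.7 and 201 CPM in the naive populations MHTO3, MHTO4 and MHTO5. All AT3-gcsf populations were above the others, with log2 ratios of 1.16 over AT3 and 2.05 over naive. Ifnar1 and Ifnar2 stayed under 2-fold in every comparison by total counts. Under TMM Ifnar2 was past it in AT3-gcsf over naive, at 1.05 (0.23 by total counts).

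Socs3, an inhibitor of cytokine receptors including that of G-CSF, was at 605, 546 and 265 CPM in AT3-gcsf MHTO3, MHTO4 and MHTO5. It was at 124, 325 and 697 CPM in AT3 populations, and at 210, 13.4 and 297 CPM in naive ones. The log2 ratios over naive were 1.61 in AT3-gcsf and 1.12 in AT3, but the populations of all 3 libraries overlapped, and AT3 MHTO10 was the highest.

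Not all interferon-inducible genes were low in AT3-gcsf. Ifitm1, a membrane protein that blocks viral entry and is no member of the module, was at 23312, 23711 and 21426 CPM in AT3-gcsf MHTO3, MHTO4 and MHTO5. It was at 4594, 10200 and 12974 CPM in AT3 populations and at 1507, 170 and 996 CPM in naive populations. Every AT3-gcsf population was above every AT3 one, and every AT3 one above every naive one, with log2 ratios of 1.43 for AT3-gcsf over AT3, 4.94 for AT3-gcsf over naive and 3.51 for AT3 over naive. The related Ifitm3 was at 2788 CPM in AT3-gcsf, 3089 CPM in AT3 and 1105 CPM in naive, so it was past 2-fold over naive in both and at -0.15 between them (0.12 under TMM). Samd9l, Sp100, Sp110, Epsti1, Ifi204 and B2m were at least 2-fold lower in AT3-gcsf than in naive, at -1.12, -1.31, -1.29, -1.16, -1.19 and -1.27, but at -0.31, -0.48, -0.55, -0.38, -0.39 and -0.41 under TMM. Samd9l was also at least 2-fold lower than in AT3, at -1.02 (-0.78 under TMM).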

How the data were processed

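The deposited matrices held raw counts of unique molecules per gene and called barcode, and of each hashtag per barcode. The submitters' processing notes name mm10, bcl2fastq 2.20.0.422 and Cell Ranger 4.0.0. A hashtag matrix was assigned to the library in which it gave a dominant tag to most barcodes (94.1% in AT3-gcsf, 97.4% in AT3 and 95.7% in naive, against at most 0.672% for any other matrix). A cell was kept when 1 tag had 20 or more counts and 80% or more of the tag counts, with 200 or more genes, under 10% mitochondrial counts and under 1% of counts in 34 markers of other cell types. This left out doublets of different tags. Doublets within a tag were kept, and no other doublet caller was run.

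Counts were summed over the cells of a library or population and scaled to CPM. Genes at 20 CPM or more in the higher library were compared as log2 ratios after adding 5 CPM, and called at 2-fold. Module counts per cell were thinned to 1500 without replacement (seed 58). High cells for the concentration of a member were chosen from the other 36 measured members, since Mx1 and Mx2 were not analysed here. Intervals at 95% are exact binomial for shares and conditional binomial for ratios. For differences of shares, the 2 exact intervals were combined by their squared distances. Python 3.11.15, numpy 2.4.6, scipy 1.17.1, pandas 2.3.3, R 4.3.3 and edgeR 4.0.16 (TMM factors only) were used, and the functions were tested on simulated data. Alternatives changed the scaling, the cell filters, the tag rule, the population weights, the pseudocount, the CPM minimum, the thinning depth and the high-cell limit, or left out 1 population.

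Any member could be named. Full values were planned for up to 10 members with the largest ratios in each direction per comparison, for the most abundant member of each role group, and for the 5 most and 5 least concentrated in high cells, and are given for some of these. Pathway genes were named when past 2-fold or most abundant in their group. Xaf1, Ifnar1 and Ifnar2, and the ligands, were named after their values were seen. The members, the gene lists and the leading genes of the populations were chosen with earlier results of these data known. Of the 58 listed pathway genes, 1 is counted but not reported here by name.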

Additional observations from a re-analysis of the deposited data

How the results depend on the processing

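Each population and library is a single sample, so no result has a replicate check, and the naive library was the shallowest. No paired analysis was possible because each comparison is of single libraries with no test, and the labels do not pair populations across libraries. The cause of the shifts below was not tested. The module log2 ratio of AT3-gcsf over AT3 kept its sign under all alternatives, at -0.88 with TMM, -1.15 without the 20 most abundant genes in the totals, -1.26 with populations weighted equally and -1.41 to -0.90 with 1 population left out. That of AT3-gcsf over naive also kept its sign, at -0.12 with TMM, -0.77 without the 20 most abundant genes, -0.96 with no cell left out by markers, -1.16 with equal weights, -0.98 with no tag needed, -1.02 without barcodes shared between libraries (chosen after seeing the data) and -1.54 to -0.60 with 1 population left out. That of AT3 over naive was 0.76, 0.38, 0.17, 0.11, 0.17 and 0.12 under the same 6 settings, and -0.40 to 0.54 with 1 population left out. It was reversed without AT3 MHTO10 (-0.09) and without naive MHTO4 (-0.40).

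Members at least 2-fold lower in AT3-gcsf than in AT3 numbered 8 with TMM and 8 to 23 with 1 population left out, lowest without AT3 MHTO10 and highest without AT3 MHTO7. In AT3-gcsf over naive they ranged from 6 to 20 with 1 population left out, the highest without naive MHTO4, and 2 members were at least 2-fold higher with TMM. In AT3 over naive 9 were at least 2-fold higher with TMM and 1 to 6 with 1 population left out, and 0 to 1 were at least 2-fold lower. The number of all genes past 2-fold also changed with the setting (above). Of 390 values of the 26 ratios of single members past 2-fold, 0 changed sign and 197 moved beyond the counting interval.

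High-cell differences of AT3-gcsf from AT3 were -33.5 points at a limit of 0.5%, -2.95 at 2%, -15.5 thinned to 1000, -12.2 thinned to 2500, -13.1 not thinned and -15.4 with the limit scaled by TMM (chosen after seeing the data). Those of AT3-gcsf from naive were -24.7 at 0.5%, -3.45 at 2%, -9.26 thinned to 2500 and -4.65 with the scaled limit. Those of AT3 from naive were 8.78 at 0.5%, -0.496 at 2%, 2.98 thinned to 2500 and 10.8 with the scaled limit. With 1 population left out, AT3-gcsf minus AT3 ran from -17.8 to -8.31, AT3-gcsf minus naive from -16.8 to -7.93 and AT3 minus naive from -4.32 to 6.45. The difference of AT3 from naive was also reversed at the 2% limit (above) and reversed without AT3 MHTO10 (-4.32) or naive MHTO4 (-2.43).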
